A study of Homo sapiens with 4 samples.

Results

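The genes described here are the 9 genes NFE2L2, KEAP1, NQO1, HMOX1, GCLC, GCLM, TXNRD1, SRXN1 and SLC7A11, which form the core of the NRF2 antioxidant response. The rule names the genes and uses no measured value, though it was written with earlier results of these data known. They make up 9 of the 58174 genes with an Ensembl identifier in a table of 59263 rows. In the study, RNA was sequenced from 2 established lines of human pancreatic cancer, SW1990 and PANC-1, either unirradiated or irradiated with 10 Gy of X-rays, to ask how the transcriptome of irradiated dying tumor cells differs from that of unirradiated cells. SW1990 cells grew in 1640 medium and PANC-1 cells in DMEM, both with serum, so line and medium cannot be told apart. There was 1 library for each line and treatment, 4 in all. The time between radiation and RNA collection is not given in the sources used here.

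The SW1990 libraries held 17939210 counted reads without radiation and 18388969 with it, and the PANC-1 libraries 23451153 and 20154644. Since no condition was sequenced more than once, no difference after radiation within a line has a replicate check, and each such comparison is of 2 libraries and not of 2 conditions. Intervals are 95% intervals that cover counting error only. Levels are given as FPKM, which scales reads to transcript length and library size, and changes as log2 of the ratio of counts after scaling of the libraries.

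NRF2, the protein encoded by NFE2L2, is the transcription factor that drives most of the cell's defence against oxidants and electrophiles. Under resting conditions KEAP1 holds NRF2 and hands it to a CUL3 ubiquitin ligase for degradation. When oxidants or electrophiles modify KEAP1, NRF2 builds up, pairs with a small MAF protein and binds antioxidant response elements near genes for glutathione synthesis, the thioredoxin cycle, quinone reduction and haem breakdown. The pathway is governed mainly through NRF2 protein, which RNA sequencing does not measure.

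The cell type labels were checked against marker genes first. The keratins KRT8 and KRT18, typical of simple epithelia, were abundant in every library, with 786 FPKM or more of KRT8 and 468 FPKM or more of KRT18. The epithelial adhesion genes EPCAM and CDH1 differed between the lines. EPCAM was at 217 and 218 FPKM in SW1990 cells and at 2.28 and 2.81 FPKM in PANC-1 cells, and CDH1 at 140 and 239 against 0.673 and 1.21 FPKM. Of 5 leukocyte markers, 1 reached 1 FPKM in PANC-1 cells, CD68 at 18.8 FPKM without and 13.9 FPKM with radiation, while PTPRC and CD3E were at 0 counts there. The summed leukocyte list was at 0.844 and 1.14 FPKM in SW1990 cells and at 18.9 and 14.1 FPKM in PANC-1 cells. The 5 fibroblast markers summed to 2.96 and 3.88 FPKM in SW1990 cells and to 9.32 and 11.7 FPKM in PANC-1 cells, with COL1A1 at 1.4 and 2.85 FPKM in SW1990 and at 8.44 FPKM or more in PANC-1 cells, PDGFRB at 129 and 63 counts in SW1990 and at 0 and 3 counts in PANC-1 cells, and DCN at 0 in all 4 libraries.

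Because NRF2 acts through antioxidant response elements, the DNA around the start sites of the 9 genes was searched for the core of that element, TGACNNNGC, in which N is any base, on both strands. A promoter reference from RefSeq (GRCh38.p14) supplied windows of 300 bases, from 250 before to 50 after a start, for 7 of the 9 genes, in 10 windows. HMOX1 and SLC7A11 had no entry in the reference used here, so their promoters were not searched. The core was found in 4 of the 10 windows, which belong to GCLM, TXNRD1 and KEAP1. Of all 35116 windows in the reference, 4687 (13.3%) held it. The sequences below show each match with 10 bases on either side, 5′ to 3′ on the strand named, with the core in capitals.

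GCLM, chr1:93909446-93909474, plus strand, opposite to the gene: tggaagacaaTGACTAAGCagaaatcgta

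TXNRD1, chr12:104215670-104215698, plus strand, as the gene: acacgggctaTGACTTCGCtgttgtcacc

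TXNRD1, chr12:104215761-104215789, minus strand, opposite to the gene: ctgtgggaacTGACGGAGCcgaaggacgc

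TXNRD1, chr12:104286920-104286948, minus strand, opposite to the gene: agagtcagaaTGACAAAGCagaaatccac

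KEAP1, chr19:10502807-10502835, minus strand, as the gene: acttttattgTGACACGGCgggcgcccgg

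KEAP1, chr19:10502784-10502812, plus strand, opposite to the gene: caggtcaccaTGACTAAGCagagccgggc

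The GCLM match and the second KEAP1 match share the core TGACTAAGC. By GENCODE 29, the first TXNRD1 match lay outside the gene. The GCLM match and the second TXNRD1 match reached the first exon with 1 base each, and the other 3 matches lay within exons. The form TGACTCAGC, with the 3 N positions fixed, which also holds the AP-1 motif TGACTCA, was in none of the 10 windows and in 197 of all 35116 (0.561%). A match is a description of sequence and not a binding site, and its absence says only that these letters are not in this window.

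Each of the 9 genes had 369 counts or more in every library, and all 9 were tested in every comparison. TXNRD1, a reductase that recharges thioredoxin, had the highest FPKM of the 9 in each library, at 304 and 290 FPKM in SW1990 cells without and with radiation and at 117 and 136 FPKM in PANC-1 cells. The lowest was SLC7A11 in both SW1990 libraries, at 8.38 and 5.62 FPKM, and GCLM in both PANC-1 libraries, at 5.47 and 6.98 FPKM. Thus the 9 levels spanned 36.3-fold and 51.7-fold in SW1990 cells and 21.4-fold and 19.4-fold in PANC-1 cells. Their median was 35.9 and 33.4 FPKM in SW1990 cells against 21.3 and 26.0 FPKM in PANC-1 cells, and their sum was 773 and 678 FPKM against 332 and 309 FPKM.

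**Figure D1:**
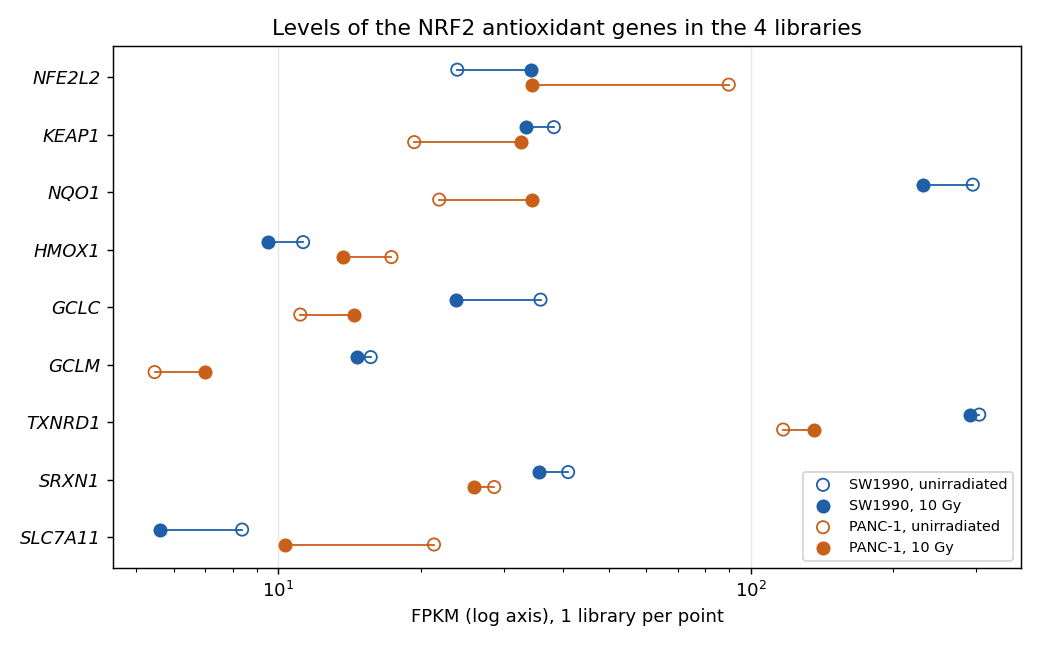
FPKM of the 9 NRF2 antioxidant genes on a log axis in each of the 4 libraries, 1 point per library with no error bar because each condition has 1 library. NQO1 stood at 295 and 231 FPKM in SW1990 cells and at 21.9 and 34.5 FPKM in PANC-1 cells, the widest gap between the lines.

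The first question was how the 9 genes differed between irradiated and unirradiated cells of a line. A gene was called where a binomial test of the reads gave a q-value below 0.001 and the fold change exceeded 2. In SW1990 cells 0 of the 9 genes were called, where 663 of 15731 genes tested (4.21%) were called. In PANC-1 cells 2 of the 9 genes were called, NFE2L2 and SLC7A11, both lower after radiation, where 727 of 15159 genes tested (4.8%) were called, 338 of them lower (2.23%) and 389 higher (2.57%). The median log2 fold change of the 9 genes was -0.18 in SW1990 and 0.07 in PANC-1 cells, beside medians of -0.006 and 0.001 over all genes tested. The median of the 9 genes in PANC-1 cells was 0.14 with scaling by total counts and 0.22 from FPKM, where that of all genes was 0.07 in both cases. In bulk RNA, fewer cells that express a gene and less of its RNA per cell cannot be told apart.

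NFE2L2 (ENSG00000116044, chr2:177227595-177392697, minus strand), which encodes NRF2 itself, had ratios of opposite direction in the 2 lines. It had 892 and 1701 counts in SW1990 cells without and with radiation, and 4823 and 1487 in PANC-1 cells. In FPKM this was 23.9 and 34.3 in SW1990 cells against 89.7 and 34.3 in PANC-1 cells, so unirradiated PANC-1 cells stood apart and the 2 irradiated libraries were alike. In scaled counts NFE2L2 fell 2.93-fold in PANC-1 cells, by 1.55 on the log2 scale (interval -1.63 to -1.47). Computed from FPKM, the log2 value there was -1.39, outside this interval. In SW1990 cells the ratio was 1.9-fold, or 0.93 on the log2 scale (interval 0.81 to 1.04), which is under the fold limit of 2, and 0.52 on the log2 scale when computed from FPKM. The log2 fold change in SW1990 minus that in PANC-1 cells was 2.48 with an interval of 2.33 to 2.62, and a test of this difference is not possible with 1 library per condition. AGPS, on the other strand, overlaps the 5′ end of NFE2L2, and whether reads were counted by strand is not stated in the sources used here. AGPS had 2087, 1979, 2652 and 2095 counts in the 4 libraries in the same order.

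KEAP1 (ENSG00000079999, chr19:10486120-10503741, minus strand), the sensor that presents NRF2 for degradation, differed little between treatments in scaled counts. It had 1577 and 1680 counts in SW1990 cells without and with radiation, and 1340 and 1422 in PANC-1 cells. The log2 fold change was 0.09 (interval -0.01 to 0.19) in SW1990 and 0.23 (interval 0.13 to 0.34) in PANC-1 cells, neither called. From FPKM the log2 values were -0.20 and 0.75, so in SW1990 cells the direction depends on the unit.

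SLC7A11 (ENSG00000151012, chr4:138164097-138242349, minus strand) is the cystine-importing subunit of system xc-, which supplies the cysteine for glutathione. It had 1703 and 1213 counts in SW1990 cells without and with radiation, and 5729 and 2321 in PANC-1 cells. The irradiated library was the lower of the pair in both lines, and both PANC-1 counts lay above both SW1990 counts. In PANC-1 cells SLC7A11 fell 2.23-fold, with a log2 fold change of -1.16 (interval -1.23 to -1.09). In SW1990 cells the log2 fold change was -0.50 (interval -0.60 to -0.39), a 1.41-fold difference that was not called.

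Both PANC-1 calls rest on reads of 2 libraries with no spread between replicates. When a coefficient of variation of 0.2 or 0.4 between replicates was assumed in edgeR, neither NFE2L2 nor SLC7A11 was called in PANC-1 cells, and the calls over all genes were 100 and 10.

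GCLC and GCLM encode the catalytic and the modifier subunit of glutamate-cysteine ligase, the first and limiting enzyme of glutathione synthesis. GCLC (ENSG00000001084, chr6:53497341-53616970, minus strand) had 1812 and 1447 counts in SW1990 cells without and with radiation, and 794 and 885 in PANC-1 cells. Its log2 fold change was -0.33 (interval -0.43 to -0.23) in SW1990 and 0.31 (interval 0.17 to 0.45) in PANC-1 cells, and the value in SW1990 cells was -0.59 from FPKM. GCLM (ENSG00000023909, chr1:93885205-93909456, minus strand) had 983 and 1005 counts in SW1990 cells and 627 and 721 in PANC-1 cells. For GCLM the log2 fold changes were 0.03 (interval -0.10 to 0.16) and 0.35 (interval 0.19 to 0.51). None of these 4 values reached the fold limit, and the 2 subunits did not differ alike in SW1990 cells.

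Neither thioredoxin gene was called. TXNRD1 (ENSG00000198431, chr12:104215779-104350305, plus strand) had 14399 and 13933 counts in SW1990 cells without and with radiation, and 7584 and 7185 in PANC-1 cells, with log2 fold changes of -0.05 (interval -0.09 to -0.02) and 0.07 (interval 0.02 to 0.12). SRXN1 (ENSG00000271303, chr20:646615-653370, minus strand), sulfiredoxin, which repairs over-oxidised peroxiredoxins, had 2433 and 2153 counts in SW1990 cells and 2232 and 1754 in PANC-1 cells. Its log2 fold changes were nearly the same in the 2 lines, -0.18 (interval -0.27 to -0.10) and -0.20 (interval -0.29 to -0.11). EID3, which lies within TXNRD1 on the same strand, had counts equal to 2.96% of those of TXNRD1.

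NQO1 (ENSG00000181019, chr16:69706996-69726951, minus strand), which reduces quinones by 2 electrons at a time and is often used as a readout of NRF2 activity, had 13794 and 10850 counts in SW1990 cells without and with radiation, and 1538 and 1658 in PANC-1 cells. The SW1990 libraries were far above the PANC-1 libraries, and the treatments lay close together within each line. The log2 fold change was -0.35 (interval -0.39 to -0.32) in SW1990 and 0.26 (interval 0.16 to 0.36) in PANC-1 cells, and the value in PANC-1 cells was 0.66 from FPKM. HMOX1 (ENSG00000100292, chr22:35380361-35394214, plus strand), haem oxygenase 1, had 424 and 369 counts in SW1990 cells and 776 and 550 in PANC-1 cells. It was lower after radiation in both pairs, with log2 fold changes of -0.21 (interval -0.41 to -0.001) and -0.35 (interval -0.51 to -0.19), neither called.

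The intervals of the 2 lines lay on opposite sides of 0 for 4 of the 9 genes, where this held for 1744 of 13228 genes tested in both lines (13.2%). As the intervals cover counting error only, a small difference in a gene with many reads, such as TXNRD1, is enough. With a difference above 1 as well, it held for 1 of the 9 genes, NFE2L2, and for 520 of 13228 genes (3.93%). NFE2L2 was the one that was higher after radiation in SW1990 and lower in PANC-1 cells, while NQO1, GCLC and TXNRD1 had the reverse signs. The log2 fold change in SW1990 minus that in PANC-1 cells was -0.61 (interval -0.71 to -0.50) for NQO1, -0.64 (interval -0.81 to -0.47) for GCLC and -0.12 (interval -0.18 to -0.07) for TXNRD1. For SLC7A11 it was 0.66 (interval 0.53 to 0.79) with both lines below 0. From FPKM these differences were -1.005 for NQO1, -0.97 for GCLC, -0.28 for TXNRD1, 0.47 for SLC7A11 and 1.91 for NFE2L2, each outside the counting intervals, which do not cover the choice of unit. KEAP1 went from -0.15 to -0.95 with this change of unit.

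**Figure D2:**
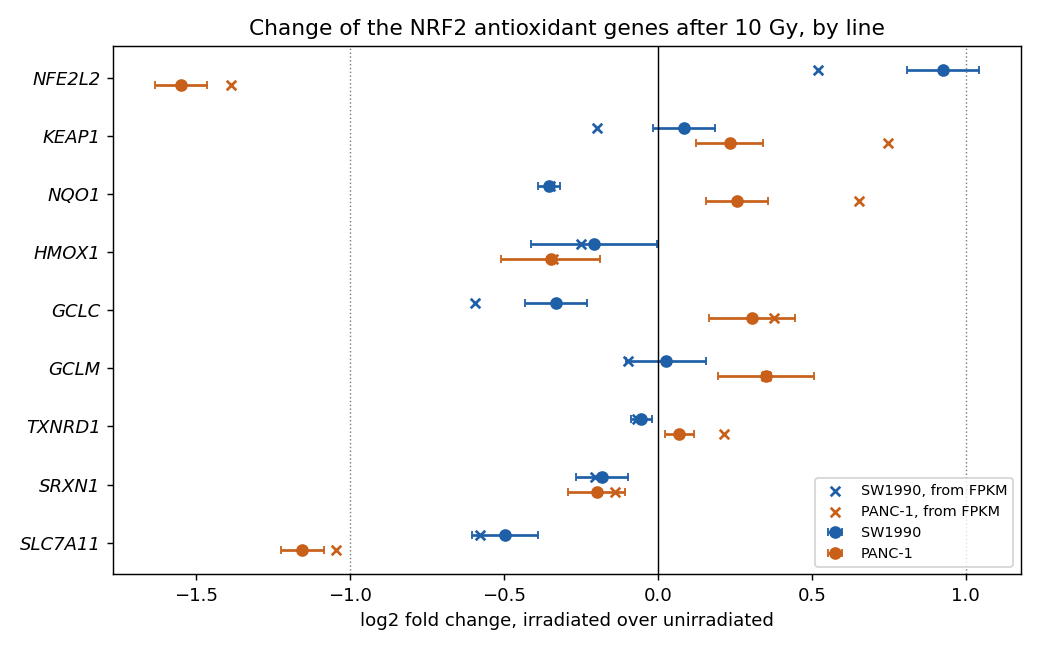
Log2 fold change after 10 Gy of the 9 genes in each line, from scaled counts (circles, bars are exact 95% intervals for counting error only) and from FPKM (crosses), with dotted lines at the fold limit of 2 in either direction. NFE2L2 sits at 0.93 in SW1990 and at -1.55 in PANC-1 cells, and SLC7A11 at -0.50 and -1.16.

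Radiation was then fitted over the 4 libraries together, with a term for the line, so that a gene has to move alike in both lines. With edgeR's quasi-likelihood test, 0 of the 9 genes and 0 of 18180 genes tested (0%) passed at an adjusted p of 0.05. At an unadjusted p under 0.05 there were 833 genes (4.58%), and DESeq2 called 38 and limma-voom 0. Of the 9 genes, SLC7A11 was the 1 with an unadjusted p under 0.05 in edgeR's quasi-likelihood test, at a log2 fold change of -0.82 (adjusted p = 0.936), and it was lower in the irradiated library of both lines. NFE2L2 had a fitted log2 fold change of -0.31 (adjusted p = 0.975 in the same test), an average of values of opposite sign.

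The second question was how the 2 lines differed, from the same fit with radiation as the covariate. Of the 9 genes 6 passed at an adjusted p of 0.05, beside 7921 of 18180 genes tested (43.6%). The genes NQO1, TXNRD1, GCLC and GCLM were higher in SW1990 cells, as were 3890 of all genes (21.4%), and SLC7A11 and HMOX1 were higher in PANC-1 cells, as were 4031 of all genes (22.2%). The residual spread has 1 degree of freedom, and each line had 1 library per treatment.

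NQO1 had the largest difference of the 9, at 8.25-fold higher in SW1990 cells, with a log2 difference of 3.05 (edgeR adjusted p = 0.00123). It was 10.1-fold higher in the unirradiated pair and 6.76-fold in the irradiated pair. GCLC was 2.08-fold higher in SW1990 cells (edgeR adjusted p = 0.016), with 2.56-fold and 1.69-fold in the unirradiated and irradiated pair. TXNRD1 was 2.07-fold higher (edgeR adjusted p = 0.00513), with 2.13-fold in the unirradiated pair and 2.0-fold in the irradiated pair. GCLM was 1.59-fold higher (edgeR adjusted p = 0.0328), with adjusted p between 0.0255 and 0.0608 over the alternatives, and its log2 difference of 0.67 was 1.17 from FPKM.

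In the other direction, SLC7A11 was 2.36-fold higher in PANC-1 cells (edgeR adjusted p = 0.012), by 2.99-fold in the unirradiated and 1.85-fold in the irradiated pair. HMOX1 was 1.53-fold higher in PANC-1 cells (edgeR adjusted p = 0.048), a call lost under every alternative that was tested, with adjusted p between 0.0532 and 0.18. NFE2L2 did not pass (log2 difference -1.01, edgeR adjusted p = 0.262): it was 4.81-fold higher in PANC-1 cells in the unirradiated pair and 1.18-fold higher in SW1990 cells in the irradiated pair. KEAP1 and SRXN1 did not pass either, with log2 differences of 0.35 (edgeR adjusted p = 0.113) and 0.32 (edgeR adjusted p = 0.123). Thus NFE2L2 and the other genes were not all ordered alike across the 4 libraries. NFE2L2 was highest in unirradiated PANC-1 cells, where NQO1, GCLC, GCLM, TXNRD1 and KEAP1 each had their lowest FPKM and SLC7A11 and HMOX1 their highest. SRXN1 had its lowest in irradiated PANC-1 cells (26.0 FPKM) and its highest in unirradiated SW1990 cells (41.0 FPKM).

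The EPCAM, CDH1, CD68 and COL1A1 levels given above also differed between the lines. Their part in the differences of the 9 genes was not tested.

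To place the 9 genes in their pathway, 7 further lists of 101 symbols were used, of which 100 were found. After radiation, 0 of 96 genes of these lists tested in SW1990 cells were called, with a median log2 fold change of 0.02 (51 higher, 45 lower). In PANC-1 cells 4 of 84 were called, 1 higher and 3 lower, with a median of 0.004 (42 higher, 42 lower). This even split depends on the scaling. With total counts in place of TMM, 8755 of all 15159 genes tested in PANC-1 cells were higher, against 7603 with TMM. The shares of all genes called were 4.21% in SW1990 and 4.8% in PANC-1 cells, and they apply to each list below.

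Among 17 regulators and partners of NRF2, 0 were called in either line, with medians of -0.04 in SW1990 and -0.19 in PANC-1 cells. These were -0.07 and -0.12 with scaling by total counts and -0.09 and -0.11 from FPKM. MAFK, a small MAF partner of NRF2, had 559 and 914 counts in SW1990 cells and 6039 and 4281 in PANC-1 cells, with log2 fold changes of 0.70 and -0.35. NFE2L1, a relative of NRF2 that controls proteasome genes, had 2850 and 2044 counts in SW1990 cells and 9717 and 5358 in PANC-1 cells, with log2 fold changes of -0.49 and -0.71. From FPKM its value in SW1990 cells was -0.997. NFE2L3, a further relative, had the lowest value of the list from counts in SW1990 cells (-0.77). AMER1, a KEAP1-binding protein, had the highest from counts in PANC-1 cells (0.33). MAFK, like NFE2L2, was on opposite sides of 0 in the 2 lines, and both had their most counts in unirradiated PANC-1 cells. TMEM184A, on the other strand, overlaps MAFK and had 782 and 689 counts in SW1990 cells and 224 and 266 in PANC-1 cells, so reads of MAFK are uncertain without strand.

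Between the lines, 1 of the 17 regulators passed at an adjusted p of 0.05 with a higher level in SW1990 and 4 with a higher level in PANC-1 cells (edgeR), with a median log2 difference of -0.15. The shares of all genes that passed were 21.4% and 22.2%. Those with the largest differences were MAFK, 6.59-fold higher in PANC-1 cells (edgeR adjusted p = 0.00397), and NFE2L1, 2.78-fold higher there (edgeR adjusted p = 0.0029), and, in the other direction, AMER1 (log2 difference 0.58, edgeR adjusted p = 0.132) and CHD6 (0.51, edgeR adjusted p = 0.0397). Scaling by total counts in place of TMM moved the median line difference of all genes by 0.15 on the log2 scale, and with it the median of the regulators to 0.004, so the direction of this median depends on the scaling.

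In the glutathione and thioredoxin cycle, 0 of 20 genes were called in SW1990 and 2 of 18 in PANC-1 cells. Over all genes tested the shares called were 4.21% and 4.8%. GPX1, a glutathione peroxidase that removes hydrogen peroxide, had 721 and 635 counts in SW1990 cells and 394 and 2316 in PANC-1 cells. It rose 6.52-fold in PANC-1 cells, with a log2 fold change of 2.70 (interval 2.55 to 2.86), and irradiated PANC-1 cells stood above the 3 other libraries. CHAC1, which degrades glutathione, had 135 and 133 counts in SW1990 cells and 1262 and 366 in PANC-1 cells, where it fell 3.11-fold. CHAC1 was thus highest in unirradiated PANC-1 cells, the library in which NFE2L2 and SLC7A11 were highest. GPX3, the plasma glutathione peroxidase, was the highest of the list in SW1990 cells (log2 fold change 0.78), and GSR, which restores reduced glutathione, was the lowest from counts (-0.22), with -0.85 from FPKM.

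By the same threshold, 9 of these 20 genes passed as higher in SW1990 and 3 as higher in PANC-1 cells, beside 21.4% and 22.2% of all genes. Of the 18 that reached an FPKM of 1 in both lines, 7 and 3 passed. PRDX2, a peroxiredoxin, had 3206 and 3991 counts in SW1990 cells against 328 and 432 in PANC-1 cells, a 10.2-fold difference (edgeR adjusted p = 0.00085). GSR had 5610 and 4852 counts in SW1990 cells against 1094 and 1090 in PANC-1 cells, a 5.15-fold difference (edgeR adjusted p = 0.00129). GPX2, an epithelial glutathione peroxidase, had 54 and 48 counts in SW1990 cells and 0 in both PANC-1 libraries. Against a floor of 3 counts per library it was at least 20.2-fold higher in the unirradiated and 16.5-fold higher in the irradiated pair. CHURC1, which had 400 counts or more in each library, overlaps GPX2 on the other strand. GGT1, which overlaps SNRPD3 on the same strand and is therefore uncertain, had 235 and 328 counts against 26 and 23. PRDX5, a further peroxiredoxin, was higher in PANC-1 cells, with a log2 difference of -1.48 (edgeR adjusted p = 0.0029).

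Of the detoxification and carbonyl reduction genes, 0 of 21 were called in SW1990 and 0 of 12 in PANC-1 cells. In PANC-1 cells 10 of the 12 had a log2 fold change above 0, with a median of 0.38, beside 50.2% of all genes tested there. In SW1990 cells 11 of 21 had one, with a median of 0.16, beside 49.4% of all genes. From FPKM the median of these 21 in SW1990 cells was 0.056. With an FPKM minimum of 5 the median of the 11 genes left in SW1990 cells was -0.04. GSTM3, a glutathione transferase with close relatives that share reads, had the highest value from counts in PANC-1 cells (0.69). From FPKM it was 0.51, below AKR1B1 at 0.73. ALDH3A2, a fatty aldehyde dehydrogenase, had the lowest from counts (-0.64), with -0.10 from FPKM.

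Of the 7 lists this one had the largest median difference between the lines, with 15 of 21 genes that passed as higher in SW1990 and 3 as higher in PANC-1 cells (edgeR, adjusted p under 0.05) and a median log2 difference of 2.37, beside -0.003 over all genes. Over all genes 21.4% passed as higher in SW1990 and 22.2% as higher in PANC-1 cells. Of the 21 genes, 9 reached the FPKM minimum of 1 in SW1990 cells alone, so they entered through the line where they are high, and 8 of the 15 are among them. Over the 12 genes that reached it in both lines, the median was 1.06, with 7 higher in SW1990 and 3 higher in PANC-1 cells. ALDH3A1, an aldehyde dehydrogenase, had 2988 and 2915 counts in SW1990 cells and 0 in both PANC-1 libraries, at least 1118.9-fold and 1003.6-fold higher. AKR1B10, AKR1C1, AKR1C2 and AKR1C3, aldo-keto reductases, were likewise at 0 in PANC-1 cells, and had between 43 and 115 counts in SW1990 cells, where AKR1C1 to AKR1C3 share near-identical sequence and are uncertain one by one. In the opposite direction, the drug efflux pump ABCG2 had 132 and 213 counts in SW1990 cells and 2985 and 3503 in PANC-1 cells (17.8-fold, edgeR adjusted p = 0.000804). ABCC1, which exports glutathione conjugates, was also higher in PANC-1 cells (log2 difference -2.37, edgeR adjusted p = 0.00131).

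Genes of NADPH supply, which feed both glutathione and thioredoxin reduction, had 0 of 8 called after radiation in either line. From counts, IDH2, the mitochondrial isocitrate dehydrogenase, had the highest values (0.26 in SW1990 and 0.70 in PANC-1 cells). IDH1, its cytosolic counterpart, had the lowest from counts (-0.09 and -0.80). From FPKM the value of IDH2 in SW1990 cells was -0.24, so its direction there depends on the unit. It was then the lowest of the 8 in SW1990 cells, and ME1 the highest (0.24). Between the lines 4 of the 8 passed as higher in SW1990 cells, led by malic enzyme ME1 (log2 difference 1.84, edgeR adjusted p = 0.00449) and transketolase TKT (1.42, edgeR adjusted p = 0.00255). Of the 8, 1 passed as higher in PANC-1 cells, the mitochondrial transhydrogenase NNT (-0.70, edgeR adjusted p = 0.0163). Of all genes, 21.4% passed as higher in SW1990 and 22.2% as higher in PANC-1 cells.

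For haem and iron, 0 of 7 genes were called in either line. The ferritin chains FTL and FTH1, which store the iron that haem oxygenase frees, were both higher in SW1990 cells. FTL had 35577 and 29565 counts there against 9349 and 10338 in PANC-1 cells (log2 difference 1.83, edgeR adjusted p = 0.00312), and FTH1 15014 and 11772 against 5364 and 4645 (1.52, edgeR adjusted p = 0.0027). Both have many pseudogenes that can share reads. The iron exporter SLC40A1 had 62 and 64 counts in SW1990 cells and 0 in both PANC-1 libraries, at least 23.2-fold higher in the unirradiated pair. In total 3 of 8 genes of the list passed as higher in SW1990 cells and 1, the transferrin receptor TFRC, as higher in PANC-1 cells (edgeR, adjusted p under 0.05). Among all genes these shares were 21.4% and 22.2%. Without SLC40A1, which was tested in neither pair for its low FPKM and is at 0 in PANC-1 cells, the counts were 2 and 1 of 7. HMOX1, unlike the ferritins, was higher in PANC-1 cells in both pairs, as TFRC was. Its call between the lines was lost under every alternative that was tested.

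Among 13 further genes often listed as NRF2 targets, SLC6A9 was called in PANC-1 cells and 0 were called in SW1990 cells. Over all genes tested the shares called were 4.8% in PANC-1 and 4.21% in SW1990 cells. SLC6A9, a glycine transporter, had 283 and 232 counts in SW1990 cells and 995 and 422 in PANC-1 cells, where it fell 2.13-fold. CCDC24, on the other strand, overlaps SLC6A9 and had 181, 187, 163 and 129 counts in the 4 libraries. FAM20C, a secretory pathway kinase, had 57 and 35 counts in SW1990 cells and 287 and 461 in PANC-1 cells, with log2 fold changes of -0.71 and 0.83, the lowest and the highest of the list. Between the lines 5 of the 13 passed as higher in SW1990 and 6 as higher in PANC-1 cells (edgeR, adjusted p under 0.05), beside 21.4% and 22.2% of all genes. The median log2 difference of the 13 was -0.38.

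Of the antioxidant genes outside the NRF2 lists, 0 of 10 tested were called in SW1990 and 1 of 9 in PANC-1 cells. Over all genes tested the shares called were 4.21% and 4.8%. SESN2, a stress-induced sestrin, had 365 and 642 counts in SW1990 cells and 5732 and 1313 in PANC-1 cells. It fell 3.94-fold in PANC-1 cells, with a log2 fold change of -1.98 (interval -2.07 to -1.89), and had a value of 0.81 (interval 0.62 to 0.998) in SW1990 cells, the same pair of signs as NFE2L2. CAT, catalase, had the lowest value of this list in SW1990 cells (-0.68), and was higher in PANC-1 cells (log2 difference -0.97, edgeR adjusted p = 0.0121).

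Among 105 genes of all lists, the 3 whose scaled levels over the 4 libraries were most like those of NQO1 were EPHX1, PRDX2 and GSTM3. Their root-mean-square log2 differences from the NQO1 pattern were 0.243, 0.297 and 0.304. EPHX1, an epoxide hydrolase, had 3314 and 2855 counts in SW1990 cells against 511 and 601 in PANC-1 cells. The counts of PRDX2 and GSTM3 had the same order by line. All 3 were therefore several-fold higher in both SW1990 libraries, as NQO1 was, and with 4 libraries of 2 lines the likeness mostly describes this line difference.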

How the data were processed

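The authors deposited, per gene and library, a read count without normalization and an FPKM value, which is scaled to transcript length and library size. The submitters' processing notes name CASAVA 1.8, FastQC 0.11.2, Trimmomatic 0.36, HISAT2 2.0, StringTie 1.3.3b, DESeq2 1.12.4 and GRCh38. The tool that made the counts is not given in the sources used here. The library kit selects mRNA, while a label says that rRNA was depleted. All 4 libraries were used. The 1089 rows that name no gene (0.453% to 0.635% of counts) were left out, and 27 gene names turned into dates were restored by identifier. Of the identifiers, 57836 were in GENCODE 29, 96.8% with the same coordinates, among them those of the 9 genes.

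Within a line, genes that reached an FPKM of 1 in either library were tested with edgeR's binomial test of the counts (edgeR 4.0.16, R 4.3.3), TMM scaling and Benjamini-Hochberg adjustment. The limits for a call were 0.001 for the q-value and 2 for the fold change, after the study's methods, with 0 set to 0.01. Intervals are Clopper-Pearson; those of differences use a normal approximation of log counts. Fits of 4 libraries used edgeR's quasi-likelihood test, with DESeq2 1.42.0 and limma-voom (limma 3.58.1) as alternatives, and had a common coefficient of variation of 0.218. The tests were checked on simulated counts, but the outcome is not given here and no result rests on it. The precision of 1 library is limited by its depth, where 3 counts equal 0.129 to 0.168 CPM.

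The 9 genes and the 7 lists were chosen with earlier results of these data known. Named genes are the 9 genes and, per list, genes called in a line (up to 6), the highest and lowest value per line, and the 2 largest line differences in each direction. The text gives a part of these. It also names MAFF, PRDX2, EPHX1, AKR1B1, AKR1B10, AKR1C2 and AKR1C3, which this rule does not give and which were chosen from their values. Scaling, filters, fold limit, unit and assumed spread were varied.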

Additional observations from a re-analysis of the deposited data

Results flagged for a closer look

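For 6 genes among the 9 NRF2 antioxidant genes and the 84 other pathway genes tested in both lines, the 95% counting intervals of the log2 fold change after radiation lay on opposite sides of 0 in the 2 lines, and the log2 fold changes differed by more than 1. Of all 13228 genes tested in both lines, 520 (3.93%) met the same conditions. In each case the value is the log2 fold change in SW1990 minus that in PANC-1 cells, and the difference was not tested, since each condition has 1 library. Among the 9 NRF2 antioxidant genes this held for NFE2L2, with 2.48. Among the other pathway genes it held for SESN2 with 2.79, for the small MAF genes MAFF with 1.11 and MAFK with 1.05, for FAM20C with -1.54 and for the peroxidase gene GPX1 with -2.89. NFE2L2, SESN2, MAFF and MAFK were higher after radiation in SW1990 and lower in PANC-1 cells, while FAM20C and GPX1 had the reverse signs. MAFF, which the rule for named genes does not give and which was chosen after its values were seen, had 308 and 477 counts in SW1990 cells and 377 and 244 in PANC-1 cells. The counts behind FAM20C in SW1990 cells were low, at 57 and 35.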

How the results depend on the processing

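Each group has 1 library, so no pairing by replicate number was possible and no replicate could be left out; the fit of 4 libraries compares treatments within lines. Calls over all genes in SW1990 and PANC-1 cells were 305 and 314 with an FPKM of at least 5, 1473 and 1807 with a fold limit of 1.5, 99 and 100 with an assumed coefficient of variation of 0.2, and 15 and 10 with 0.4. Of the 9 genes, 1 was called in SW1990 cells with the limit of 1.5 (NFE2L2), and 0 in PANC-1 cells with either assumed spread. DESeq2 called 38 genes for radiation over both lines. From FPKM, 2 of the 9 genes had opposite signs in the lines and a difference above 1, NFE2L2 and NQO1 (-1.005). Directions turned for GCLM in SW1990 cells (-0.004 with total counts, -0.10 from FPKM), KEAP1 in SW1990 cells (-0.20 from FPKM), GCLC in the radiation fit (0.004 with total counts), NFE2L2 between the lines (0.24 in the irradiated pair alone), and the difference between the lines in the change of SRXN1 (-0.085 with total counts, -0.064 from FPKM). Between the lines, HMOX1 lost its call with DESeq2 (adjusted p = 0.18) and in the 4 other alternatives tested, GCLM with DESeq2 (adjusted p = 0.0575) and without a filter (0.0608), and SRXN1 gained one with total counts (0.0473). The difference between the lines in the change of TXNRD1 was -0.226 with total counts, and the line differences of TXNRD1 and SRXN1 were 1.23 and 0.47 from FPKM. Of 295 alternative values for single genes and medians, 7 turned direction, 11 lost and 2 gained a call. The causes were not tested.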
